A study of Homo sapiens with 6 samples.

Results

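Lysosomal hydrolases, lysosomal membrane proteins, the subunits of the vacuolar proton pump (V-ATPase) and the 3 MiT/TFE transcription factors TFEB, TFE3 and MITF were examined in A549 cells with reduced BCLAF1. The members were the protein-coding rows of the deposited count table whose symbol was one of 30 named lysosomal and transcription factor genes, started with ATP6V0 or ATP6V1, or was ATP6AP1 or ATP6AP2. This rule matched 54 of the 29122 rows, and 50 of them carried enough counts to be tested. The other 4, ATP6V1C2, ATP6V1G2, ATP6V1G2-DDX39B and ATP6V0D2, had group means of 0.0377 to 0.246 CPM (counts relative to library size, on a common scale) and were not tested.

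A549 is an established line of lung carcinoma epithelial cells. The 3 control libraries came from cells stably transduced by lentivirus with a short hairpin RNA against firefly luciferase, a gene these cells lack, and the 3 BCLAF1-depleted libraries from cells transduced in the same way with a hairpin against BCLAF1, a nuclear protein known for roles in RNA processing and transcription. The labels are not uniform: titles of the depleted libraries carry the prefix si, and the source names spell the cell line A649. The treatment protocol and the cell line field were followed here. The series concerns BCLAF1 and its partner MED23, a Mediator subunit, in senescence and autophagy flux, and lysosomes are where autophagy ends. The labels do not say how many hairpin sequences were used, whether the cells were a pool or a clone, or whether the replicates were separate cultures, so the p-values rest on differences among these 6 libraries, some of which may be technical repeats.

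Lysosomes digest what endocytosis and autophagy deliver to them. The V-ATPase acidifies them: its cytosolic V1 sector hydrolyses ATP and its membrane V0 sector carries protons across, and acid pH lets the cathepsins, glycosidases, sulfatases and lipases work. TFEB, TFE3 and MITF bind a palindromic E-box element in the promoters of many of these genes, and are kept in the cytoplasm when the mTORC1 kinase is active at the lysosomal surface.

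That element was searched in promoter sequences from RefSeq (build GRCh38.p14), taken from 250 bases before to 50 after each transcript start. Of the 54 members, 39 had an entry, with 59 promoters in all. NAGLU, ATP6V0D2, ATP6V1B2, ARSA, CTSB, ATP6V1H, PSAP, SGSH, ATP6V1A, HEXA, CTSS, ATP6V1E2, ATP6V0E1, LAMP2 and ATP6V1C1 had none. A pair of nested palindromes was counted, each of which reads the same on both strands, so that 1 search covers both. The core CACGTG stood in 12 of the 59 promoters (20.3%) and in 7.26% of all 35116 promoters of that length. The longer TCACGTGA stood in 6 of the 59 (10.2%) and in 0.98% of all promoters. The windows printed here are those of the 6 genes with TCACGTGA, followed by 2 genes with the core alone that were higher after BCLAF1 depletion. Each runs 5′ to 3′ on the strand of its gene, and capitals mark the matches.
MCOLN1: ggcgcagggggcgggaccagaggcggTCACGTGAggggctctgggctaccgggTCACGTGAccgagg
ATP6V1G1: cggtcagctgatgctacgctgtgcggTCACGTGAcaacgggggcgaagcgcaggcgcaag
GAA: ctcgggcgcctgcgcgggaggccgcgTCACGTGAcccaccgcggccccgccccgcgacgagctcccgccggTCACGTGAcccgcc
LAMP1: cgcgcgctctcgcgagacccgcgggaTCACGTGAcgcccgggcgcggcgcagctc
CTSA: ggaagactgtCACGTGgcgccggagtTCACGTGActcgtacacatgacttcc
ATP6V0D1: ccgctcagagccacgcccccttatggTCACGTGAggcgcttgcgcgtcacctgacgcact
CTSD: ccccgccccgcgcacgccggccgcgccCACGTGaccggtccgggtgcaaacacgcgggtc
ATP6V0E2: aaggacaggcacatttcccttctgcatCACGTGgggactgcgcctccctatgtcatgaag

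The MCOLN1 window lies at chr19:7522556-7522622 on the plus strand and, like that of GAA, holds 2 copies, the first of which begins 42 bases before the transcript start. Those of ATP6V1G1 (chr9:114587684-114587743), GAA (chr17:80101478-80101562), LAMP1 (chr13:113297184-113297238), CTSA (chr20:45891283-45891334) and ATP6V0E2 (chr7:149872869-149872928) are also on the plus strand. Those of ATP6V0D1 (chr16:67481184-67481243) and CTSD (chr11:1763942-1764001) are on the minus strand. A match describes the letters of a promoter and does not show that a factor binds there. Of the 6 genes with TCACGTGA, MCOLN1 alone passed the threshold, with a higher level, and of the 11 genes with the core, 3 were higher (MCOLN1, CTSD and ATP6V0E2) and 0 lower. Of the 50 tested members 10 were higher and 4 lower, and of all tested genes 17.8% were higher and 18% lower. With library totals in place of TMM factors none of these 3 kept the call (adjusted p of 0.195 for MCOLN1 and 0.138 for CTSD). A link between motif and call was not tested.

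The libraries held 33409158 to 43928927 counts. Levels are given as CPM after TMM scaling, on which 3 counts, the limit that a count of 0 allows, equal 0.0624 to 0.0925 CPM; this limit covers counting error only. BCLAF1 stood at 211, 199 and 203 CPM in the controls and at 39.0, 35.7 and 53.1 CPM in the depleted libraries, a log2 fold change of -2.26 ± 0.16 (SE; adjusted p = 2.31e-05, edgeR quasi-likelihood test), so the target checks the labels. MED23 stood at 5.997, 6.67 and 8.27 CPM in the controls and at 6.76, 3.61 and 3.85 CPM in the depleted libraries, with overlapping groups (-0.56 ± 0.24, adjusted p = 0.0955). Depleted replicate 1 stood apart: on the first principal component, which held 68.3% of the variance, the controls lay between -43.6 and -40.9, replicate 1 at 19.4 and the other 2 depleted libraries at 53.4 and 54.2. The epithelial keratin KRT8 averaged 16030 CPM in the controls and 16145 CPM in the depleted libraries, whereas KRT19 and NKX2-1 of the same marker list were near 0. Of the 11 tested genes of this list of 12, AKR1C1 (means of 91.7 and 140 CPM) and KRT19 (0.280 and 0.616 CPM) rose, and FOXA2 (16.2 and 11.7 CPM) fell. The 10 macrophage and leukocyte markers summed to 0.792 to 1.26 CPM in the controls and 1.88 to 2.26 CPM in the depleted libraries, without overlap, and of the 2 tested 0 passed by edgeR (1 at an unadjusted p under 0.05). The 10 fibroblast and endothelial markers summed to 24.6 to 27.1 CPM in the controls and 17.6 to 19.1 CPM in the depleted libraries. Of the 7 tested, CDH5 rose and COL1A1 and PECAM1 fell, COL1A1 from a mean of 17.7 to 9.89 CPM. The part of these markers in the results below was not tested. As these are bulk RNA samples, fewer cells of a type and less RNA per cell cannot be told apart.

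After BCLAF1 depletion 10 of the 50 tested members rose and 4 fell at an adjusted p under 0.05. The higher ones were the proteases CTSH, CTSD and CTSL, the glycosidase GLA, the ion channel MCOLN1 and the V-ATPase subunit genes ATP6V1F, ATP6V1E2, ATP6V0C, ATP6V0E1 and ATP6V0E2. The lower ones were the transcription factor MITF, the membrane proteins LAMP2 and SCARB2, and the V-ATPase subunit gene ATP6V0A2. The 14 called members are 28% of those tested, and 35.8% of all 15907 tested genes were called (2827 or 17.8% higher, 2870 or 18% lower), so the share among the members was not above that of the transcriptome. The 3 control and 3 depleted values did not overlap for 25 members (50%), against 51.9% of all tested genes. The median log2 fold change of the members was 0.08, beside 0.02 for all tested genes, with 30 members above 0 and 20 below.

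The direction of this median depended on the scaling between libraries. With library totals in place of TMM factors the median of all tested genes moved from 0.02 to -0.21 and that of the members from 0.08 to -0.13. All tested genes then gave 1283 higher (8.07%) and 3662 lower calls (23%, 31.1% in all), and the members gave 1 higher (CTSH) and 7 lower. The 4 lower members and CTSH thus kept their call under both scalings, and the other 9 higher members did not. Increases are therefore stated here relative to the TMM scale. Without depleted replicate 1, 12 members were higher and 8 lower, while 48.8% of all tested genes were called. The members added were HEXA and GUSB (adjusted p = 0.0246 there), higher, and NPC1, LIPA, ATP6AP2 and ATP6V1D (0.0311), lower.

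**Figure D1:**
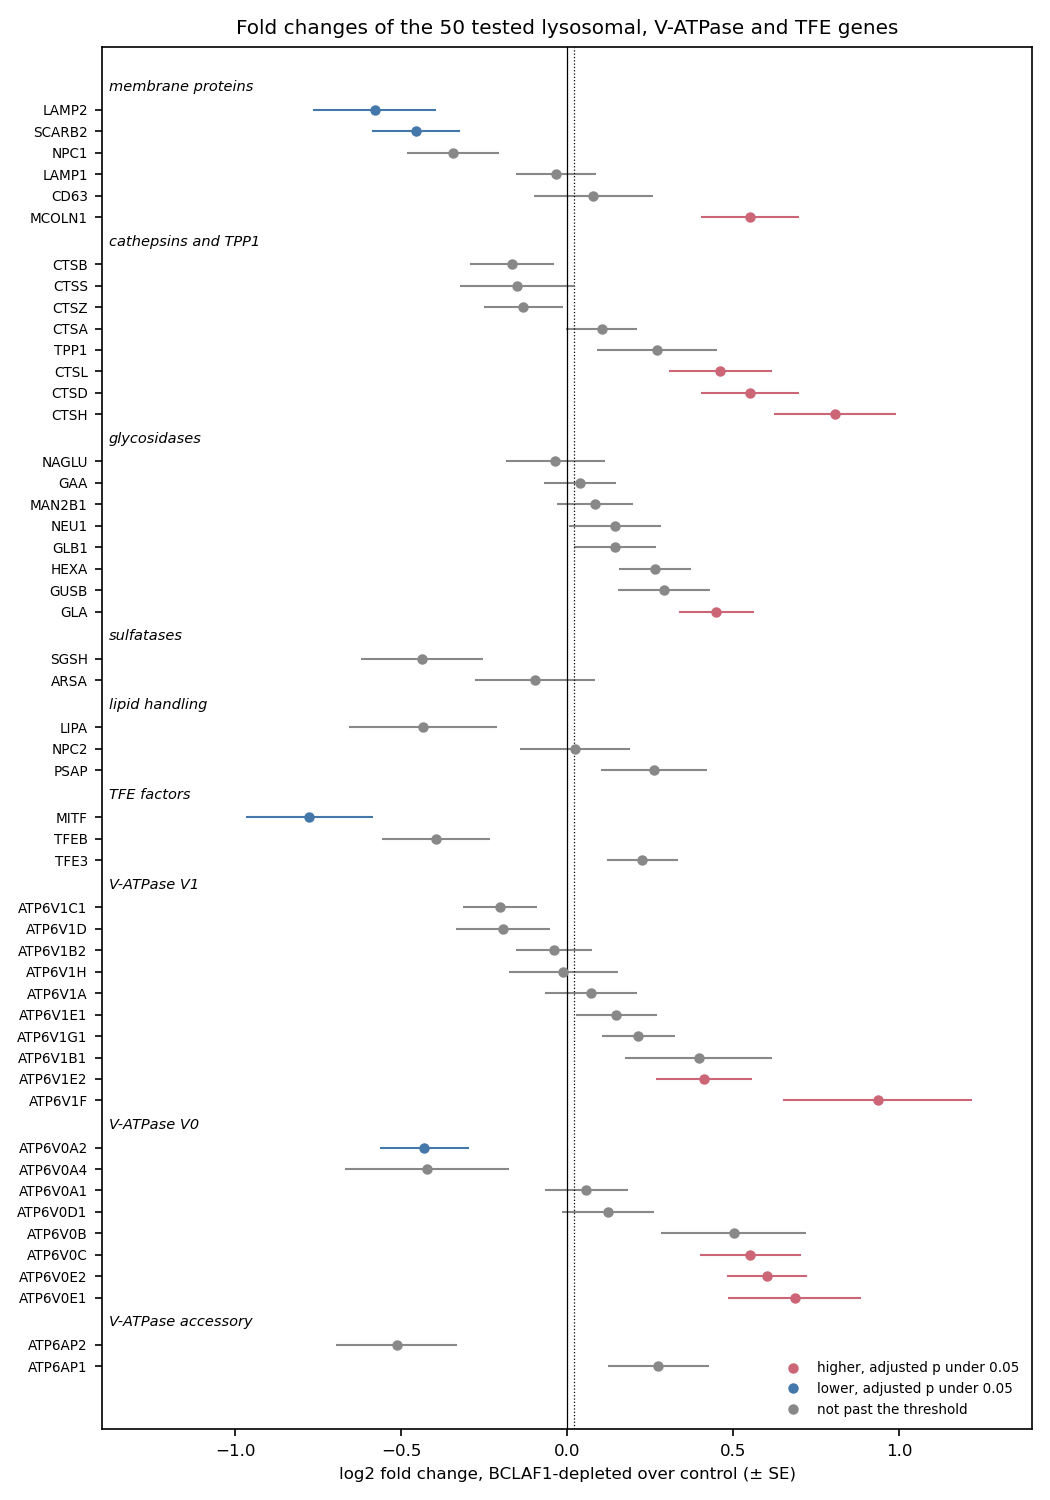
Log2 fold change (x axis, BCLAF1-depleted over control) with its SE for each of the 50 tested members, grouped by role on the y axis; colours mark the 10 members higher and the 4 lower at an adjusted p under 0.05, and the dotted line is the median of all tested genes, 0.02. The values run from -0.78 for MITF to 0.94 for ATP6V1F, and calls in both directions occur among the membrane proteins and the V-ATPase V0 subunits.

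The 3 transcription factor genes did not move together. MITF, on chromosome 3 at 69739435 to 69968337 (GRCh38, plus strand), is best known as the regulator of pigment cells. It stood at 12.2, 12.3 and 14.1 CPM in the controls and at 9.04, 5.28 and 8.23 CPM in the depleted libraries. All 3 depleted values were below every control, and MITF fell 1.71-fold (log2 fold change -0.78 ± 0.19, adjusted p = 0.0123). It passed the threshold in 14 of 15 other settings of the processing, the exception being the fit without control replicate 3 (-0.71, adjusted p = 0.0565).

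TFEB, often described as the main regulator of lysosome formation, was scarce in these cells. Its level was 3.71, 4.49 and 4.20 CPM in the controls and 3.16, 2.99 and 3.27 CPM in the depleted libraries. Depleted values all lay below the controls, but the difference did not pass the threshold (-0.40 ± 0.16, adjusted p = 0.0798). With library totals it did (-0.63, adjusted p = 0.0355).

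TFE3 was the most abundant of the 3 per unit of length, at 17.4 ± 0.476 FPKM (SD, n = 3) in the controls, against 2.03 ± 0.182 FPKM for MITF and 0.893 ± 0.0862 FPKM for TFEB. FPKM are the authors' length-normalised values. TFE3 stood at 60.5, 63.7 and 60.4 CPM in the controls and at 71.9, 71.8 and 72.1 CPM in the depleted libraries. The groups did not overlap, but the difference did not pass the threshold (0.23 ± 0.11, adjusted p = 0.12), and it turned sign on the log2(FPKM + 1) scale (-0.064). The summed CPM of the 3 factors was 76.4 to 80.5 in the controls and 80.1 to 84.1 in the depleted libraries, so the ranges overlapped.

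Of the 6 lysosomal membrane proteins, 1 rose, 2 fell and 3 did not pass the threshold (50% called, against 35.8% of all tested genes). MCOLN1 encodes TRPML1, the channel through which calcium leaves the lysosome. It stood at 5.95, 6.43 and 6.34 CPM in the controls and at 7.78, 9.68 and 9.99 CPM in the depleted libraries. All depleted values were above every control, and MCOLN1 rose 1.47-fold (0.55 ± 0.15, adjusted p = 0.017). Without any 1 of the control libraries its adjusted p was 0.062 to 0.0855. Its exons share 6 bases with those of PNPLA6 on the same strand, and also overlap those of AC008878.2 on that strand.

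LAMP2, a heavily glycosylated protein of the lysosomal membrane that also serves chaperone-mediated autophagy, stood at 29.2, 30.9 and 31.0 CPM in the controls and at 27.3, 16.3 and 17.4 CPM in the depleted libraries. Depleted replicate 1 lay just below the controls and the other 2 far below them. LAMP2 fell 1.50-fold (-0.58 ± 0.18, adjusted p = 0.0333), and without depleted replicate 1 the log2 fold change was -0.89 (adjusted p = 0.000255). Leaving out depleted replicate 2 or 3 ended the call (adjusted p of 0.111 and 0.0972), as did leaving out any 1 control (0.0744 to 0.0982).

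SCARB2, also called LIMP-2, carries the enzyme glucocerebrosidase to the lysosome. It stood at 39.3, 39.0 and 35.7 CPM in the controls and at 31.9, 27.4 and 23.8 CPM in the depleted libraries. The groups did not overlap, and SCARB2 fell 1.37-fold (-0.45 ± 0.13, adjusted p = 0.0241). Removing the trend in annotated exon length and GC content left -0.18 (adjusted p = 0.27). Leaving out any 1 control or depleted replicate 2 or 3 gave adjusted p-values of 0.0503 to 0.097.

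LAMP1, the partner of LAMP2 in the lysosomal membrane, stood at 54.9, 55.8 and 53.1 CPM in the controls and at 56.9, 56.6 and 46.5 CPM in the depleted libraries. The groups overlapped, with a log2 fold change of -0.03 ± 0.12 (adjusted p = 0.848), which turned to 0.055 without depleted replicate 3. The cholesterol exporter NPC1 was at 28.1, 28.5 and 29.8 CPM in the controls and at 23.97, 25.5 and 18.5 CPM in the depleted libraries, without overlap (-0.34 ± 0.14, adjusted p = 0.075; 0.0478 and 0.0488 without depleted replicate 1 or 2). The tetraspanin CD63 was at 231, 242 and 229 CPM in the controls and at 210, 324 and 207 CPM in the depleted libraries, so that 1 depleted library was far above the other 5.

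Among the 7 cathepsins and the peptidase TPP1, 3 rose and 0 fell (37.5% called, against 35.8% of all tested genes). CTSH, a cysteine protease that trims peptides from their amino end and processes surfactant protein in lung cells, lies on chromosome 15 at 78921058 to 78949574 (minus strand). It stood at 8.80, 9.99 and 8.21 CPM in the controls and at 11.6, 16.7 and 19.0 CPM in the depleted libraries. All depleted values were above every control, and CTSH rose 1.75-fold (0.81 ± 0.18, adjusted p = 0.00874). It was the only one of the 14 called members that passed the threshold in all 15 other settings, with log2 fold changes of 0.40 to 0.97.

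CTSD, the main aspartic protease of the lysosome, stood at 112, 108 and 130 CPM in the controls and at 142, 188 and 183 CPM in the depleted libraries. Depleted replicate 1 was the lowest of the depleted libraries and still above the highest control. CTSD rose 1.46-fold (0.55 ± 0.15, adjusted p = 0.0173), and leaving out control replicate 1 or 2 or depleted replicate 2 gave adjusted p-values of 0.0534 to 0.0967. Of its exon bases, 41.7% are shared on the same strand with the row RP11-295K3.1, which also overlaps IFITM10 and averaged 47.9 CPM in the controls and 47.0 CPM in the depleted libraries. How the authors' counting divided reads between these rows is not known.

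CTSL, a cysteine endopeptidase, had the highest length-normalised level of the members, at 123 ± 3.13 FPKM in the controls (SD, n = 3). On the CPM scale it stood at 310, 301 and 292 in the controls and at 348, 402 and 494 in the depleted libraries. The depleted values were spread widely and all lay above the controls. CTSL rose 1.38-fold (0.46 ± 0.15, adjusted p = 0.0404), but it passed the threshold in 4 of 15 other settings, and leaving out any 1 control or depleted replicate 2 or 3 ended the call (adjusted p of 0.0655 to 0.143). With replicate number as a block its adjusted p was 0.0594.

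CTSB, a cysteine protease released into the cytosol when lysosomes are damaged, went the other way without passing the threshold. It stood at 349, 368 and 331 CPM in the controls and at 326, 306 and 302 CPM in the depleted libraries, without overlap (-0.17 ± 0.13, adjusted p = 0.321). On the deposited FPKM scale, as log2(FPKM + 1), it was lower (-0.45, adjusted p = 0.0384). CTSZ, CTSA, CTSS and TPP1 gave log2 fold changes between -0.15 and 0.27, and none passed. The summed level of the 8 protease genes was 965 to 987 CPM in the controls and 1011 to 1190 CPM in the depleted libraries, so the sums did not overlap on the TMM scale.

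**Figure D2:**
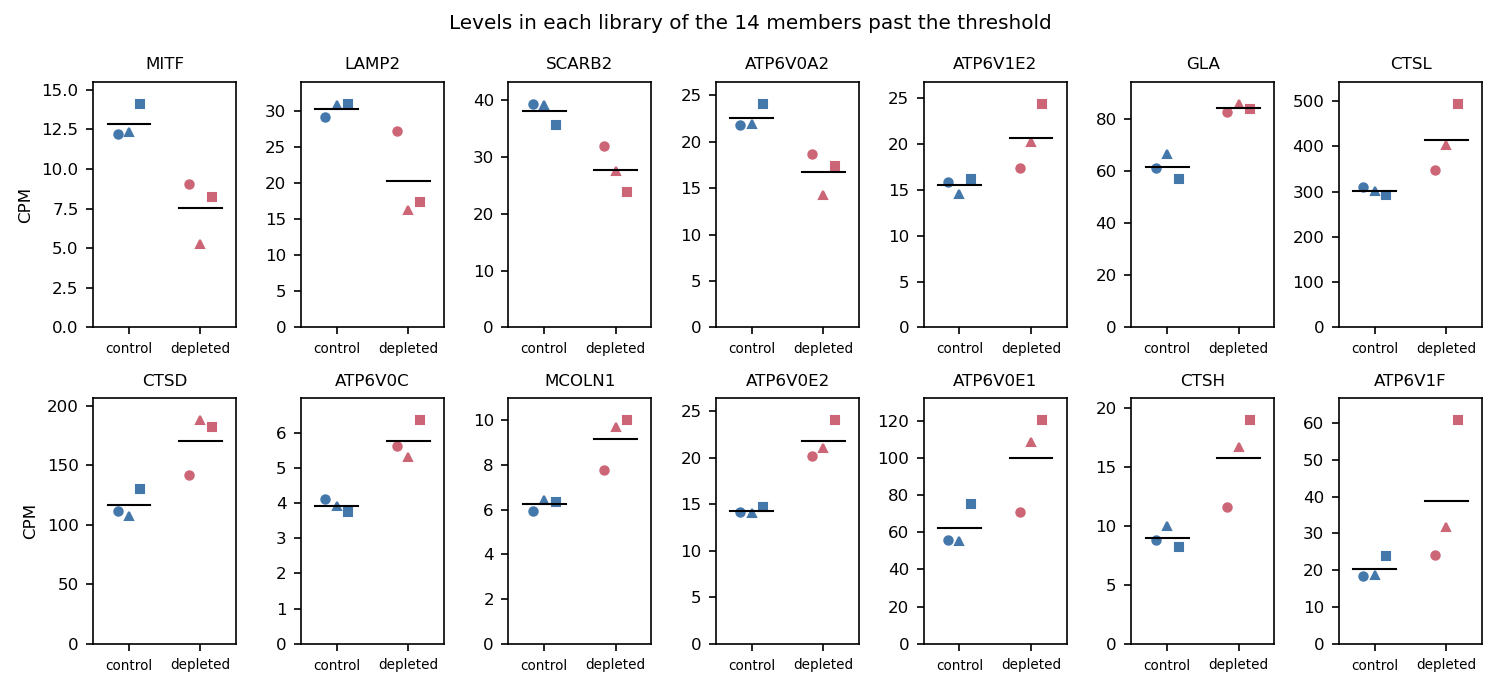
CPM (y axis, linear from 0, own scale for each gene) in each library for the 14 members past the threshold; circles, triangles and squares are replicates 1, 2 and 3, and lines are group means of 3 libraries. Control and depleted points are separate for every gene except ATP6V0E1, where depleted replicate 1 at 71.1 CPM lies below control replicate 3 at 75.03 CPM.

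Of the 8 glycosidase genes, which encode enzymes that cut sugars from glycoproteins, glycolipids and glycogen, 1 rose and 0 fell. The called share was 12.5%, against 35.8% of all tested genes. GLA, alpha-galactosidase A, the enzyme lacking in Fabry disease, is on chromosome X at 101397803 to 101408012 (minus strand). It stood at 61.4, 66.6 and 57.2 CPM in the controls and at 82.9, 86.0 and 83.9 CPM in the depleted libraries. The 3 depleted libraries lay close together and well above the controls, and GLA rose 1.37-fold (0.45 ± 0.11, adjusted p = 0.0137). Leaving out any 1 control gave adjusted p-values of 0.0503 to 0.0803.

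HEXA, a subunit of beta-hexosaminidase, stood at 27.0, 28.3 and 28.9 CPM in the controls and at 32.6, 34.5 and 34.1 CPM in the depleted libraries. All depleted values were above the controls, but the difference missed the threshold (0.26 ± 0.11, adjusted p = 0.0788). It passed with the length and GC trend removed (0.43, adjusted p = 0.012) and without depleted replicate 1 (0.27, adjusted p = 0.0406). GUSB, beta-glucuronidase, was at 54.0, 50.4 and 53.3 CPM in the controls and at 54.5, 76.1 and 62.5 CPM in the depleted libraries, so replicate 1 was near the controls and the other 2 above them. GLB1, the beta-galactosidase whose activity is read in the common senescence stain, was at 22.9, 26.8 and 22.0 CPM in the controls and at 28.1, 25.7 and 25.4 CPM in the depleted libraries. Its groups overlapped (adjusted p = 0.38). GAA, MAN2B1, NAGLU and NEU1 had log2 fold changes of -0.04 to 0.14 and did not pass. On the TMM scale the summed level of the 8 genes was 237 to 249 CPM in the controls and 281 to 302 CPM in the depleted libraries. This separation is stated for that scale only, as the TMM factor of depleted replicate 3 was 0.795.

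Neither sulfatase passed the threshold. SGSH, which removes sulfate from heparan sulfate, was at 3.37, 3.61 and 4.51 CPM in the controls and at 2.57, 2.76 and 3.17 CPM in the depleted libraries (-0.44 ± 0.18, adjusted p = 0.088), without overlap. ARSA averaged 7.13 ± 0.409 CPM in the controls and 6.66 ± 1.58 CPM in the depleted libraries (SD, n = 3 each).

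No gene of lipid handling passed either, and their libraries disagreed. LIPA, the acid lipase, stood at 28.1, 27.6 and 26.5 CPM in the controls and at 29.2, 17.4 and 14.3 CPM in the depleted libraries. Depleted replicate 1 was above every control and the other 2 were far below. The log2 fold change was -0.43 ± 0.22 (adjusted p = 0.15) with all libraries and -0.81 (adjusted p = 0.000885) without depleted replicate 1. LIPA was also called lower without the low-count filter (-0.47, adjusted p = 0.0123). PSAP, the precursor of the saposins that present lipids to hydrolases, was at 344, 339 and 318 CPM in the controls and at 479, 393 and 328 CPM in the depleted libraries, with overlap (0.26 ± 0.16, adjusted p = 0.216; 0.0466 without depleted replicate 3). NPC2, which hands cholesterol to NPC1, was at 10.2 to 14.5 CPM in the controls and at 11.0 to 14.1 CPM in the depleted libraries.

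Together, 4 of the 21 hydrolase and lipid handling genes were called higher and 0 lower. This was 19.0% called, against 35.8% of all tested genes (17.8% higher and 18% lower). The median log2 fold change of the 21 genes was 0.10, and it became -0.12 with library totals and -0.18 on the log2(FPKM + 1) scale. Their summed level was 1572 to 1624 CPM in the controls and 1819 to 1848 CPM in the depleted libraries. These sums did not overlap on the TMM scale, and their separation is stated for that scale only. On library totals each sum would be multiplied by its TMM factor, which was lowest in depleted replicate 3 (0.795). The largest parts of the sums were CTSL, PSAP and CTSB. CTSL and PSAP had higher means in the depleted libraries and CTSB a lower one (350 and 311 CPM).

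The V-ATPase had 24 rows, 20 of them tested. Of these, 5 rose, 1 fell and 14 did not pass, a called share of 30% against 35.8% of all tested genes. The median log2 fold change of the 20 was 0.14, and it became -0.09 with library totals and -0.15 on the log2(FPKM + 1) scale. In the V1 sector, 2 of 10 tested genes rose and 0 fell. ATP6V1F, subunit F of the central stalk, on chromosome 7 at 128862826 to 128865844 (plus strand), had the largest log2 fold change of the members. It stood at 18.4, 18.6 and 23.9 CPM in the controls and at 24.1, 31.7 and 60.7 CPM in the depleted libraries. The lowest depleted value was barely above the highest control, and depleted replicate 3 was far above all others. ATP6V1F rose 1.91-fold (0.94 ± 0.29, adjusted p = 0.0288), and without depleted replicate 3 the log2 fold change was 0.46 (adjusted p = 0.0671). Leaving out any 1 control or depleted replicate 2 also ended the call (adjusted p of 0.0533 to 0.0871). Exons of KCP lie on the opposite strand.

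ATP6V1E2, the less abundant isoform of subunit E, stood at 15.9, 14.6 and 16.2 CPM in the controls and at 17.4, 20.3 and 24.4 CPM in the depleted libraries. The groups did not overlap, and ATP6V1E2 rose 1.33-fold (0.41 ± 0.14, adjusted p = 0.0473), close to the threshold. Without the low-count filter its adjusted p was 0.075, and leaving out any 1 control or depleted replicate 2 or 3 gave 0.0812 to 0.18. Its exons overlap those of RHOQ on the opposite strand, and RHOQ fell (-0.53 ± 0.15, adjusted p = 0.0211; 0.0521 to 0.0761 without any 1 library other than depleted replicate 1). As the strand setting of the counting is not known, reads of the overlap cannot be assigned.

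The other V1 genes did not pass the threshold. ATP6V1A, encoding the catalytic A subunit, was at 24.9 ± 2.37 CPM in the controls and 26.2 ± 3.78 CPM in the depleted libraries (SD, n = 3 each). ATP6V1B2, encoding its partner B2, was at 28.6 ± 1.06 CPM and 27.9 ± 2.14 CPM. ATP6V1G1 was at 54.5 to 56.1 CPM in the controls and 61.1 to 68.5 CPM in the depleted libraries, without overlap, and ATP6V1C1 at 29.4 to 30.3 CPM against 24.7 to 27.9 CPM, also without overlap and in the other direction. Groups overlapped for ATP6V1D, ATP6V1E1 and ATP6V1H, and not for ATP6V1B1, which averaged 1.27 and 1.67 CPM.

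In the V0 sector 3 of 8 tested genes rose and 1 fell (50% called, against 35.8% of all tested genes). ATP6V0E2 and ATP6V0E1 encode isoforms of the small subunit e. ATP6V0E2 stood at 14.1, 14.1 and 14.8 CPM in the controls and at 20.2, 21.1 and 24.04 CPM in the depleted libraries. Both groups were tight and far apart, and ATP6V0E2 rose 1.52-fold (0.60 ± 0.12, adjusted p = 0.0051), the smallest adjusted p among the members. It passed in 12 of 15 other settings, failing with library totals (0.37, adjusted p = 0.101) and on both FPKM scales (adjusted p of 0.118 and 0.113). The antisense row ATP6V0E2-AS1 stood at means of 0.959 and 0.942 CPM. On the same strand, exons of AC092681.3 overlap those of ATP6V0E2.

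ATP6V0E1 stood at 56.1, 55.2 and 75.03 CPM in the controls and at 71.1, 108 and 120 CPM in the depleted libraries. Depleted replicate 1 fell below control replicate 3, so the groups overlapped although ATP6V0E1 rose 1.61-fold (0.69 ± 0.20, adjusted p = 0.0241). Leaving out control replicate 1 or 2 or depleted replicate 2 or 3 gave adjusted p-values of 0.0756 to 0.0976. As a share of summed subunit e FPKM, ATP6V0E1 held 88.4% ± 1.45 in the controls and 88.8% ± 2.19 in the depleted libraries (SD, n = 3 each; exact permutation test, two-sided p = 0.9), a difference smaller than the spread between replicates.

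ATP6V0C encodes the proteolipid c, the subunit that forms the rotating ring. It stood at 4.12, 3.92 and 3.74 CPM in the controls and at 5.62, 5.31 and 6.35 CPM in the depleted libraries. The groups did not overlap, and ATP6V0C rose 1.47-fold (0.55 ± 0.15, adjusted p = 0.0193). Leaving out any 1 control gave adjusted p-values of 0.0689 to 0.0838, and removing the length and GC trend left 0.22 (adjusted p = 0.323). Of its 1498 exon bases, 862 (57.5%) are shared on the same strand with the row RP11-20I23.1.

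That neighbouring row held most of the counts of the locus. RP11-20I23.1 stood at 139, 146 and 141 CPM in the controls and at 177, 224 and 259 CPM in the depleted libraries, and ATP6V0C held 2.32% to 3.07% of the counts of the pair. RP11-20I23.1 rose (0.63 ± 0.15, adjusted p = 0.0112), without overlap between groups, though leaving out any 1 control gave adjusted p of 0.0509 to 0.06. TBC1D24, which lies upstream and also shares exon bases with that row, rose as well (0.61 ± 0.17, adjusted p = 0.0193; 0.0537 to 0.0819 without any 1 control or without depleted replicate 2). Without the authors' counting rule, the level of ATP6V0C cannot be separated from that of RP11-20I23.1. The pair together was at 143 to 150 CPM in the controls and at 183 to 265 CPM in the depleted libraries.

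ATP6V0A2 encodes a2, an isoform of the a subunit that places the pump in Golgi and endosomes. It stood at 21.8, 21.9 and 24.1 CPM in the controls and at 18.7, 14.2 and 17.4 CPM in the depleted libraries. The groups did not overlap, and ATP6V0A2 fell 1.35-fold (-0.43 ± 0.13, adjusted p = 0.031). Leaving out any 1 control or depleted replicate 2 gave adjusted p-values of 0.0654 to 0.12, and removing the length and GC trend left -0.20 (adjusted p = 0.219). ATP6V0B was at 17.1, 17.2 and 12.8 CPM in the controls and at 23.3, 28.4 and 14.9 CPM in the depleted libraries, with replicate 3 low in both groups. Its difference missed the threshold (0.50 ± 0.22, adjusted p = 0.0959) and passed without depleted replicate 3 (0.72, adjusted p = 0.0153). ATP6V0A1 and ATP6V0D1 averaged 22.0 and 19.96 CPM in the controls and 22.9 and 21.7 CPM in the depleted libraries.

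The accessory subunits did not pass. ATP6AP2, known also as the prorenin receptor, stood at 54.4, 53.8 and 52.6 CPM in the controls and at 50.5, 30.1 and 32.0 CPM in the depleted libraries. Depleted replicate 1 was near the controls and the other 2 well below, as for LAMP2 and LIPA. With all libraries the log2 fold change was -0.51 ± 0.18 (adjusted p = 0.0504), just outside the threshold, and it passed in 7 of 15 other settings, among them the fit without depleted replicate 1 (-0.81, adjusted p = 0.000287) and the DESeq2 test (adjusted p = 0.0319). ATP6AP1 was at 40.5 to 44.6 CPM in the controls and 40.7 to 61.6 CPM in the depleted libraries, and passed only without depleted replicate 3 (adjusted p = 0.0252).

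The 4 isoforms of subunit a were compared as shares of their summed FPKM. TCIRG1, which encodes the a3 isoform and is not a member by the rule, held 57.3%, 53.8% and 53.0% in the controls and 43.8%, 47.7% and 45.0% in the depleted libraries. ATP6V0A1, the a1 isoform, held 25.7%, 27.7% and 27.6% in the controls and 38.1%, 36.2% and 35.9% in the depleted libraries. Every depleted library had a lower share of a3 and a higher share of a1 than every control. The summed FPKM was 18.5 to 19.0 in the controls and 9.66 to 14.7 in the depleted libraries. ATP6V0A1 itself averaged 5.06 and 4.36 FPKM, so its larger share was not a higher level. The difference was -9.20 percentage points for TCIRG1 and 9.74 for ATP6V0A1, each with p = 0.1 by a two-sided exact permutation test, the smallest p that 3 against 3 libraries can give, and before adjustment over the 10 shares compared in 4 subunit families. TCIRG1 fell in the count test (-0.66 ± 0.12, adjusted p = 0.00278), from a mean of 32.1 to 20.3 CPM, and ATP6V0A1 did not pass (adjusted p = 0.74). ATP6V0A2 held a mean share of 15.8% in the controls and 15.4% in the depleted libraries, and ATP6V0A4, the isoform of kidney and inner ear, 2.49% and 2.39%.

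**Figure D3:**
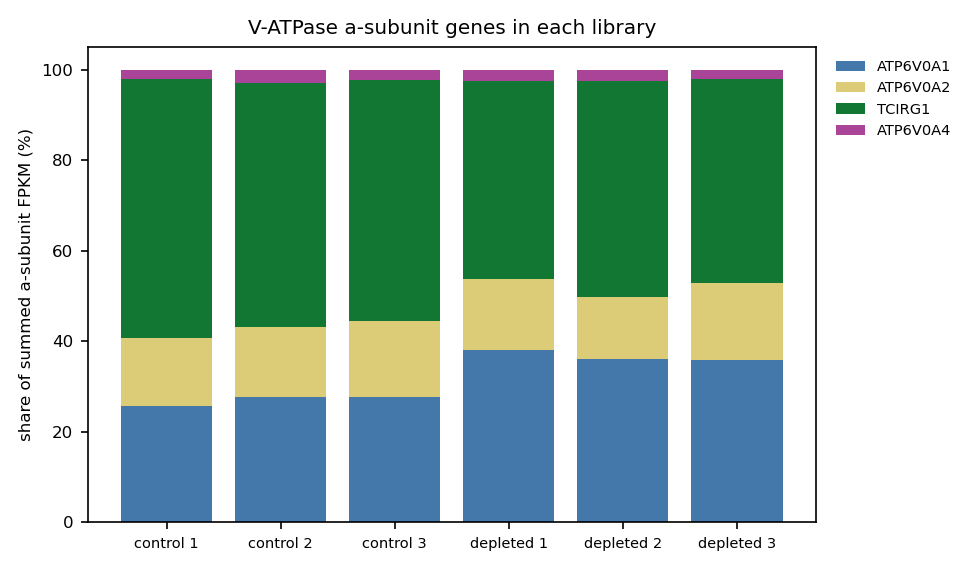
Share of the summed FPKM of the 4 a-subunit genes (y axis, percent) held by each gene in each of the 6 libraries. The TCIRG1 share is 53.0% to 57.3% in the controls and 43.8% to 47.7% in the depleted libraries, and the ATP6V0A1 share is at most 27.7% in the controls and at least 35.9% in the depleted libraries.

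Per unit of length, the most abundant members in the controls were CTSL at 123 FPKM, PSAP at 112, CD63 at 97.8, CTSZ at 94.0 and CTSB at 81.0 FPKM. In the depleted libraries these 5 stood at 137, 112, 84.6, 70.2 and 59.4 FPKM. CTSD, at 53.0 FPKM below CTSB in the controls, stood at 62.9 ± 5.29 FPKM in the depleted libraries beside 59.4 ± 10.6 FPKM for CTSB (SD, n = 3 each), so there the pair did not differ beyond their spread. In the V-ATPase the highest control levels were those of ATP6V1E1 at 63.8, ATP6V1G1 at 49.5 and ATP6V0E1 at 37.0 FPKM. Over all genes tested as log2(FPKM + 1) the median log2 fold change was -0.21.

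The direction of the calls differed between short and long genes. Exon length here is the union of all annotated exons of a gene, which can exceed the length of the transcripts expressed. For SCARB2 it was 19341 bases, and the deposited counts and FPKM of SCARB2 imply a shorter length. The bins and the trend below rest on the annotated length. Of the 11 tested members with fewer than 3000 exon bases, 5 rose and 0 fell, while in all tested genes of that length 27.0% rose and 6.90% fell. Of the 13 members with at least 6000 exon bases, 1 rose and 3 fell, against 11.1% and 28.7% of all tested genes of that length. Of the 26 members in between, 4 rose and 1 fell, against 16.3% and 17.4% of all tested genes of that length. Across the 50 members Spearman's rho between log2 fold change and exon length was -0.46, and across 15775 tested genes with a length it was -0.30. Both are descriptions, since genes of 1 set of libraries are not independent. With the trend in length and GC content removed, MITF, CTSH, CTSD, MCOLN1, ATP6V1E2 and ATP6V0E2 of the 14 kept their call, and LAMP2, SCARB2, CTSL, GLA, ATP6V1F, ATP6V0A2, ATP6V0C and ATP6V0E1 did not, while 34% of all tested genes were called in that fit. With replicate number as a block in addition, 9 of the 14 kept their call, LAMP2 among them (-0.40, adjusted p = 0.0454), while 35% of all tested genes were called. What length does to these values was not tested further.

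**Figure D4:**
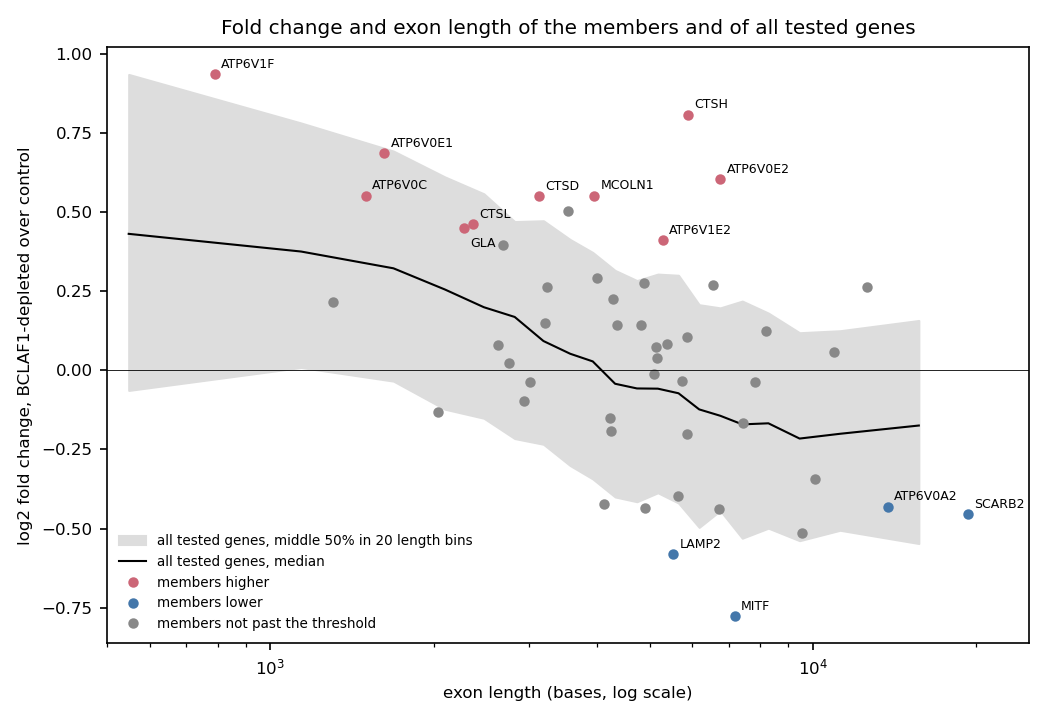
Log2 fold change (y axis, BCLAF1-depleted over control) against exon length in bases (x axis, log scale) for the 50 tested members, over the median line and the middle 50% band of all tested genes in 20 length bins. Exon length is the union of all annotated exons, not the length of the transcript expressed. The higher members ATP6V1F, ATP6V0E1 and ATP6V0C sit at the short end, where the median of all genes is above 0, and the lower members SCARB2 and ATP6V0A2 sit at the long end; CTSH, ATP6V0E2 and MITF lie outside the band of genes of their length.

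The 14 calls also depended on single libraries. Leaving out control replicate 1, 2 or 3 kept 3, 3 and 4 of the 14, with CTSH and ATP6V0E2 kept each time, while 18.1%, 18.1% and 19.7% of all tested genes were then called. Leaving out depleted replicate 1, 2 or 3 kept 14, 6 and 8 of them, with 48.8%, 25% and 30.8% of all tested genes called. The 14 log2 fold changes kept their sign in all 15 other settings, whereas 24 of the 50 tested members turned sign in at least 1 setting. The 14 were called in these same libraries, so their kept signs are no separate check.

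**Figure D5:**
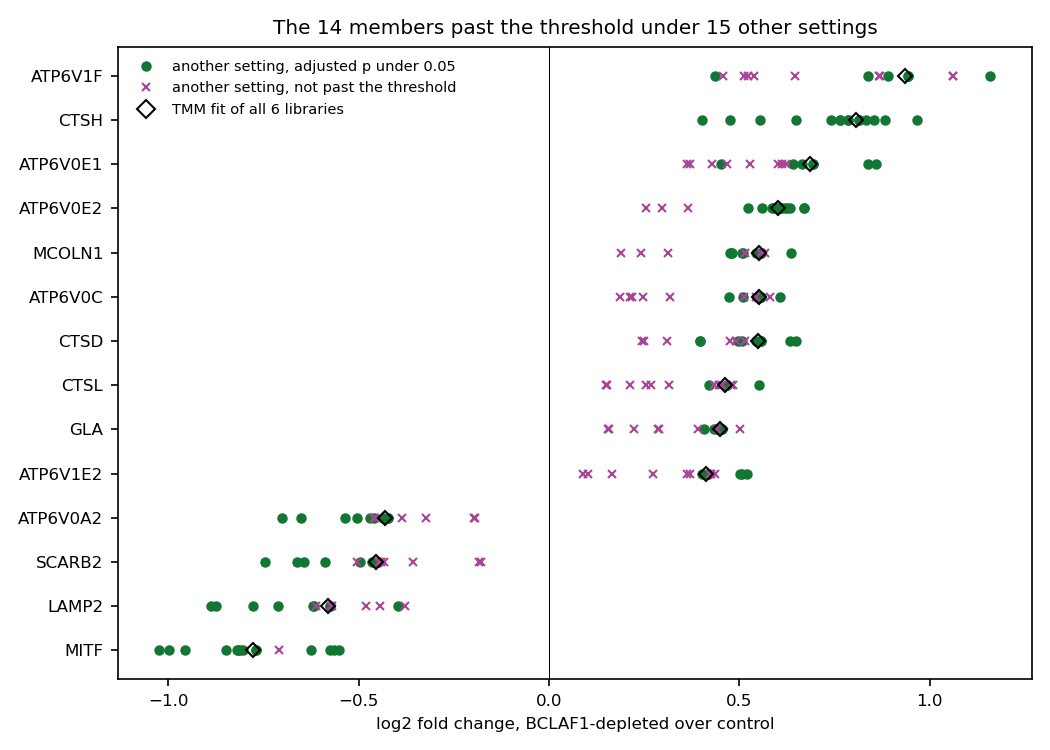
Log2 fold change (x axis, BCLAF1-depleted over control) of each of the 14 called members under 15 other settings of scaling, filter, test, unit and libraries; diamonds are the values of the TMM fit of all 6 libraries, circles pass an adjusted p of 0.05 and crosses do not. CTSH has circles only, MITF has 14 circles, and no gene crosses 0.

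Other genes of the lysosomal pathway were read from 5 lists without members. Of 110 tested genes, 12 rose and 29 fell (37.3% called, against 35.8% of all tested genes), with a median log2 fold change of -0.12 that was -0.32 with library totals. Among 37 further lysosomal enzymes, 0 rose and 8 fell (21.6% called). Those that fell included the cysteine proteases CTSV (-0.70 ± 0.13, adjusted p = 0.0033) and CTSK (-0.61 ± 0.22, adjusted p = 0.0488). PLA2G15, a lysosomal phospholipase, fell as well (-0.54 ± 0.17, adjusted p = 0.0315). CTSK and PLA2G15 lost their call without any 1 control or without depleted replicate 2 or 3 (adjusted p of 0.0543 to 0.143). The cathepsins thus held both directions, with CTSH, CTSD and CTSL higher and CTSV and CTSK lower.

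Among 20 tested membrane proteins outside the member list, 3 rose and 3 fell (30% called, against 35.8% of all tested genes). CTNS, the cystine exporter, fell from a mean of 3.58 to 1.89 CPM (-0.92 ± 0.24, adjusted p = 0.0148; 0.0641 without control replicate 2 and 0.0502 without depleted replicate 2). LAPTM4A and GPR137 rose (0.59 ± 0.17 and 0.59 ± 0.15), as did SLC17A5, the sialic acid exporter (0.55 ± 0.17), and with library totals none of these 3 passed (adjusted p of 0.136 to 0.246). LAPTM4A also lost its call without any 1 control (0.0706 to 0.0981), GPR137 without control replicate 1 or 3 (0.0504 and 0.0685), and SLC17A5 without control replicate 1 or 2 or depleted replicate 2 or 3 (0.0574 to 0.147).

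Among 22 genes that sort enzymes to the lysosome, 3 rose and 7 fell (45.5% called, against 35.8% of all tested genes). CLN6, a protein of the endoplasmic reticulum needed for the exit of lysosomal enzymes, rose from a mean of 39.7 to 72.3 CPM (0.86 ± 0.14, adjusted p = 0.00182). AP3S1, a small subunit of the AP-3 adaptor, rose (0.74 ± 0.16), while AP3M1, another subunit of that adaptor, fell (-0.64 ± 0.18). The sorting receptors SORT1 (-0.61 ± 0.15) and IGF2R, the mannose 6-phosphate receptor (-0.43 ± 0.13), also fell. AP3M1 lost its call without control replicate 1 or 2 or depleted replicate 2 or 3 (adjusted p of 0.06 to 0.0733), SORT1 without control replicate 1 (0.0607), and AP3S1 with library totals (0.0736). IGF2R averaged 99.99 CPM in the controls and 74.4 CPM in the depleted libraries, and lost its call without any 1 control or without depleted replicate 2 (adjusted p of 0.0581 to 0.119).

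Among 10 tested genes for V-ATPase assembly and the a3 isoform, 2 rose and 4 fell (60% called, against 35.8% of all tested genes). DMXL2 of the rabconnectin complex, which loads V1 onto V0, fell from a mean of 20.9 to 9.60 CPM (-1.12 ± 0.25, adjusted p = 0.00854). The other genes of that complex differed from it and from each other: WDR7 fell from a mean of 9.86 to 6.85 CPM (adjusted p = 0.043), DMXL1 did not pass (means of 17.0 and 15.3 CPM, adjusted p = 0.33), and ROGDI rose from a mean of 19.7 to 27.8 CPM (0.50 ± 0.15, adjusted p = 0.0282). ROGDI missed the threshold with library totals (0.25, adjusted p = 0.259) and without any 1 library other than depleted replicate 1 (0.0729 to 0.11). OXR1, a TLDc protein that binds the pump, fell (-1.07 ± 0.22), and VMA21, an assembly chaperone of V0, rose from a mean of 27.4 to 42.2 CPM (0.62 ± 0.11, adjusted p = 0.0026). VMA21 missed the threshold with library totals (0.40, adjusted p = 0.0749).

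Among 21 tested regulators of the TFE factors, 4 rose and 7 fell (52.4% called, against 35.8% of all tested genes). Those that fell included PPP3CB, a catalytic subunit of the phosphatase calcineurin that releases TFEB to the nucleus (from a mean of 37.4 to 19.3 CPM, -0.96 ± 0.14, adjusted p = 0.00105). FNIP1, the partner of folliculin in the nutrient-sensing complex on lysosomes, fell (-0.93 ± 0.19), as did MAP4K3, a kinase reported to phosphorylate TFEB (-0.88 ± 0.29). LAMTOR4, a small subunit of the Ragulator complex that anchors mTORC1 signalling to the lysosome, rose (0.81 ± 0.21, adjusted p = 0.016). The Ragulator genes LAMTOR2 (means of 27.8 and 44.5 CPM, 0.68 ± 0.19, adjusted p = 0.0198) and LAMTOR5 (11.6 and 20.3 CPM, 0.81 ± 0.17, adjusted p = 0.00613) rose too. LAMTOR1 (adjusted p = 0.0812) and LAMTOR3 (adjusted p = 0.348) did not pass. LAMTOR5 was called higher in all 15 other settings, whereas LAMTOR2 missed the threshold with library totals (0.47, adjusted p = 0.129) and without any 1 control library (0.0607 to 0.0768). In the same list the Rag GTPase genes RRAGA and RRAGC and the folliculin gene FLCN were called lower. MAP4K3 and LAMTOR4 each lost the call without control replicate 1 or 2 (adjusted p of 0.0629 to 0.0908), MAP4K3 also without control replicate 3 or depleted replicate 3 (0.0755 and 0.0663), and LAMTOR4 without depleted replicate 2 or 3 (0.0698 and 0.0554) and with library totals (0.56, adjusted p = 0.0542).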

How the data were processed

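The members and lists were chosen with earlier results of these data known. The authors deposited whole-number counts per gene, not normalized, for 29122 genes, and FPKM, which are normalized for gene length and library size, for 28878 genes. Per the labels' protocols, oligo(dT)-selected RNA went into directional libraries. The submitters' processing notes name bcl2fastq, TopHat2, edgeR and GRCh38, while their versions and roles, how reads were counted, and with which annotation and strand setting, were not given in the sources used here.

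Counts were tested with edgeR 4.0.16 (R 4.3.3; quasi-likelihood, TMM, group as the only term) after filterByExpr (minimum count 10, minimum total 15), with Benjamini-Hochberg adjustment over 15907 genes and a threshold of 0.05. SE is the absolute log2 fold change divided by the root of F. The biological coefficient of variation was 15.3%. The fit was also run on simulated counts with 200 changed genes. These held no length trend and no outlying library, so that run does not check the fit for those features. Alternatives used DESeq2 1.42.0, limma 3.58.1 on FPKM (at least 0.5 in 3 libraries, pseudocount 1 or 0.1) and an mgcv 1.9.3 length and GC trend. Exon lengths were the union of all exons of a gene in GENCODE 29, which matched 28362 genes and 99.2% of those tested. The lengths behind the authors' FPKM are not known. Of symbols shared by 2 rows (IDS, CLN3), the row with more counts was used.

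By rule, every member past the threshold and TFEB, TFE3, MITF, LAMP1, LAMP2, CTSD and CTSB were described by library, with up to 4 called genes of each other list and BCLAF1 and MED23. IGF2R, RHOQ, TBC1D24, the overlapping rows and other members or list genes with values were added after their values were seen. Outside the rule, the other genes of the rabconnectin and Ragulator complexes, the genes of the Rag GTPases and folliculin, and the marker genes with a call were named after their values were seen. A gene that the rule named is not reported here.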

Additional observations from a re-analysis of the deposited data

How the results depend on the processing

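Counts of calls are given here as higher and lower. Where a sentence gives 1 direction only, the other count is left out and need not be 0. For the other pathway genes this leaves out lower calls, which were 29 in the TMM fit. With DESeq2 size factors in edgeR or the DESeq2 Wald test the 14 called members were all kept, and the Wald test called 2 V-ATPase genes lower instead of 1. The Wald test called 18.7% of all tested genes lower. With library totals, all tested genes gave 1283 higher (8.07%) and 3662 lower calls (23%). The members gave 1 and 7, the V-ATPase 0 and 2, and the hydrolases and lipid handling genes 1 and 1. The other pathway genes gave 2 higher. On log2(FPKM + 1), 952 (7.28%) of 13075 tested genes were higher and 4061 (31.1%) lower. The members gave 1 and 11, the V-ATPase 0 and 3 and the hydrolases 1 and 3. The other pathway genes gave 2 higher. On log2(FPKM + 0.1) all tested genes gave 909 higher (6.95%) and 3869 lower (29.6%). The other counts there were 1 and 11, 0 and 3, 1 and 3, and 2. With the length and GC trend removed the members gave 6 and 2 and the V-ATPase 2 and 0. Of the hydrolases, CTSH, CTSD and HEXA were then higher and 1 lower. Of all tested genes, 17.9% were then higher and 16% lower. With that trend and the replicate block together the V-ATPase gave 0 lower and the hydrolases 1 lower, in both fits CTSZ. CTSH, CTSD and HEXA were higher there too. Lower calls were 16.8% of all tested genes with trend and block. Without the low-count filter the V-ATPase gave 2 lower and the hydrolases 1 lower, LIPA, against 11.8% lower of all 29122 genes tested there.

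Same-numbered control and depleted libraries had correlated deviations of 0.036, 0.047 and 0.119, and differently numbered ones had -0.0763 to 0.0335. The main fit did not pair the samples, but these values do not exclude a pairing. A fit with the replicate block called 37.8% of all tested genes, against 35.8% without it. With the replicate block the V-ATPase gave 2 lower calls and the hydrolases 1 lower, LIPA (-0.50, adjusted p = 0.031), and 13 of the 14 called members were kept, CTSL being lost. In that fit 19.6% of all tested genes were lower.

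Leaving out 1 library at a time gave 1383 to 3741 higher (8.51% to 23%) and 1549 to 4195 lower calls (9.53% to 25.8%) over all tested genes. The members gave 2 to 12 higher and 0 to 8 lower, the V-ATPase 1 to 5 and 0 to 3, the hydrolases 1 to 6 and 0 to 1, and the other pathway genes 4 to 17 and 11 to 41. Over all tested genes, the lowest counts came without a control library and the highest without depleted replicate 1. Each such fit has fewer libraries.

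Among genes given with their own log2 fold change, 4 turned sign. LAMP1 was 0.022 with the length and GC trend removed, 0.016 with trend and replicate block, and between -0.10 and 0.055 (the latter without depleted replicate 3) when 1 library was left out. On log2(FPKM + 1) and log2(FPKM + 0.1), HEXA was -0.024 and -0.029, PSAP -0.048 and -0.049, and TFE3 -0.064 and -0.067. The cause was not tested. The low-count filter kept 4 members from being tested. With 3 libraries a group, a member that missed the threshold is not shown to be unchanged. As strand and counting rule are unknown, members with overlapping genes, among them ATP6V0C, CTSD, ATP6V1E2, MCOLN1 and ATP6V0E2, may hold reads of those genes.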
